A study of Mus musculus with 18 samples.

Results

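The genes described here are 42 interferon-stimulated genes and their close regulators, taken by symbol from the 23234 gene symbols of a deposited mouse T cell expression table. They comprise 22 antiviral effectors, 4 genes of cytoplasmic RNA sensing, 6 interferon-inducible GTPases, 4 transcription factors, 2 receptor chains and 4 regulators of protein tagging and ADP-ribosylation. All 42 were in the table, and all 42 reached the mean of 0.5 FPKM (fragments per kilobase, relative to the library's fragments) over the libraries that was asked of a tested gene, which 11162 genes reached.

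The study examined G9a, the histone methyltransferase encoded by Ehmt2, in CD8 T cells. The RNA came from C57BL/6 spleen and lymph node T cells that had expanded for 4 weeks in lymphopenic animals. CD4+CD8+ cells lacking G9a (KO DP, 4 libraries), CD4-CD8+ cells lacking G9a (KO SP, 2 libraries) and CD4-CD8+ cells with G9a (WT SP, 4 libraries) were compared. Separately, H3K9me3, a histone mark of silent chromatin, was mapped in 2 Ehmt2+/+ and 2 Ehmt2-/- samples of splenic CD8+ T cells of the same strain, which were kept in culture with antibodies to CD3 and CD28. The labels do not give the age of the animals, how Ehmt2 was deleted, which host was used, or whether the libraries of a group came from separate animals. KO DP and WT SP differ in both genotype and CD4 phenotype, KO SP and WT SP in genotype, and KO DP and KO SP in phenotype.

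Type I interferons bind a receptor made of Ifnar1 and Ifnar2. The receptor's kinases activate a complex with STAT2 and IRF9 that binds interferon-stimulated response elements (ISREs) at promoters. Interferon gamma acts at gamma-activated sites (GAS). Both induce antiviral genes, and Usp18, itself induced, removes ISG15 from proteins and restrains the receptor. T cells respond to interferons during infection and, at a low tone, at rest.

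Promoter sequences show what many of these genes share, independently of the expression values. RefSeq promoters of 300 bases (250 before to 50 after the start, GRCm38.p6) were given for 33 of the 42 genes; Zbp1, Rtp4, Mx1, Parp14, Dhx58, Oas2, Parp9, Mx2 and Usp18 had no entry. The ISRE core, GAAA and GAAA with any 2 bases between them, was sought on both strands and was present in 17 of the 33 genes (51.5%), against 3.99% of 27025 genes. A narrower form with C as the first base of the gap, every match of which is also a match of the first, was present in 12 (36.4%), against 0.792%. The GAS core TTCNNNGAA was present in 11 (33.3%), against 9.55%. The 150 bases before the start of 5 genes with an ISRE core are shown because these genes stand on both sides of the expression results: Isg15 and Rsad2 were higher in KO DP than WT SP, Oas3 was lower, and Oas1a and its neighbour Oas1g are a pair of close copies. Capitals mark the ISRE core on either strand, and runs of overlapping cores are joined.
Isg15 (chr4:156200819-156200968, minus strand): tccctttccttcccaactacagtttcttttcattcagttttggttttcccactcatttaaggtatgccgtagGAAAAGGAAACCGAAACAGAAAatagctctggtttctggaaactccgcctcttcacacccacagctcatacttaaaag
Rsad2 (chr12:26456453-26456602, minus strand): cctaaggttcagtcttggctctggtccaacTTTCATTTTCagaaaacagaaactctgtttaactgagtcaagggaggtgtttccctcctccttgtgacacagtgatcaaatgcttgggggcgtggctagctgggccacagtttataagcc
Oas3 (chr5:120777660-120777809, minus strand): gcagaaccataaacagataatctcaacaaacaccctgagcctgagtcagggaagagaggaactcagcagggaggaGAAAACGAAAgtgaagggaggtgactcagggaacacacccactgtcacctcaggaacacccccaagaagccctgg
Oas1a (chr5:120907526-120907675, minus strand): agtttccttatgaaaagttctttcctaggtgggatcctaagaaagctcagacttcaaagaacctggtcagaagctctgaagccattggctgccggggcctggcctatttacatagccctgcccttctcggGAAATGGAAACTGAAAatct
Oas1g (chr5:120887614-120887763, minus strand): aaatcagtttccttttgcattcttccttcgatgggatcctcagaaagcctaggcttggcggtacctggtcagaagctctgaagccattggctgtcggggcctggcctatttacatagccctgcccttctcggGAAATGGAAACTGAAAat

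The windows of Oas1a and Oas1g share a run of 56 identical bases that holds the ISRE cores. The deposited table does not say how reads shared by such copies were assigned, so the separate values of Oas1a and Oas1g are uncertain. A GAS core without an ISRE core was found in the windows of Isg20, Irf1, Ifit2, Ifi35, Ifnar1 and Ifnar2. Isg20 encodes a nuclease, and Irf1 a transcription factor induced by interferon gamma. The 150 bases before the start of Isg20 and Irf1 are shown with the GAS core in capitals.
Isg20 (chr7:78913274-78913423, plus strand): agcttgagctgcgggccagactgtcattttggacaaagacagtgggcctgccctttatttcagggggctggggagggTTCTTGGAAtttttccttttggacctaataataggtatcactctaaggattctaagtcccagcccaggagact
Irf1 (chr11:53769864-53770013, plus strand): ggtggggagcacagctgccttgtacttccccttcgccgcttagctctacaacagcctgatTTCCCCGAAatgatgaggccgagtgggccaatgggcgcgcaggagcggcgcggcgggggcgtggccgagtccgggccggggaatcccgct

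The libraries were not alike in ways that bear on these genes. The deposited FPKM summed to between 441903 and 504013 in 8 libraries, but to 292872 and 183632 in KO DP replicates 3 and 4. In these 2, the mean of 1118 olfactory receptor genes, which T cells do not use, was 0.150 and 0.227 FPKM, against 0.0074 to 0.021 elsewhere. All values below were therefore divided by size factors (0.728 and 0.455 in these 2 libraries, 1.08 to 1.26 in the others) and are called scaled FPKM. The titles of the samples carry numbers of unknown meaning, 34 to 37 for KO DP and WT SP replicates 1 and 2, and 738 to 741 for the rest, and differences are given within each range. Summed erythroid marker genes were 434 to 1033 in titles 34-37 and 1.8 to 45.9 in titles 738-741, myeloid markers 151 to 257 against 116 to 142, and NK cell markers 70.9 to 115 against 24.0 to 51.0. Most of the NK sum came from Eomes, Tyrobp and Fcer1g. Eomes overlapped between the ranges (36.0 to 69.3 against 18.5 to 39.1). Tyrobp (16.4 to 23.9 against 2.07 to 12.9) and Fcer1g (8.47 to 22.4 against 0.849 to 1.96) did not. Of the erythroid list 8 of 9 genes, of the myeloid list 16 of 17 and of the NK list 8 of 8 were in the table, and their part in the results below was not tested. In bulk RNA, fewer cells of a type and less RNA per cell cannot be told apart. Cd4 was 108 to 151 scaled FPKM in KO DP and 0.130 to 0.458 in the other 6 libraries, and Cd8a was 154 to 293 in all 10. Ehmt2 did not separate the genotypes: it was 17.9, 20.1, 17.5 and 16.0 scaled FPKM in the KO DP libraries, 16.8, 37.8, 23.4 and 19.3 in WT SP, and 10.1 and 11.6 in KO SP. The labels do not say which exons were deleted, so a value over the whole gene does not check the genotype.

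Over both title ranges, 13 of the 42 genes differed between KO DP and WT SP: 5 were higher in KO DP (Isg15, Isg20, Rsad2, Ifih1 and Xaf1) and 8 were lower (Oas2, Oas3, Oasl1, Oasl2, Usp18, Ddx58, Ifnar1 and Ifnar2). The test was limma on log2(scaled FPKM + 1) with Benjamini-Hochberg adjustment over all 11162 genes, and a gene is called at an adjusted p under 0.05. Among all genes tested 31.8% were called (16.2% higher and 15.6% lower), so the 31.0% of these genes lies near the background and is not a result about them as a set. Their median difference was -0.07 (log2), and that of all genes was -0.01. Without regard to title range, KO DP lay wholly above WT SP for 2 genes (Rsad2 and Xaf1, background 10.2%) and wholly below for 3 (Oas2, Usp18 and Ifnar1, background 9.04%). With unscaled FPKM, the median of all genes moved to -0.38 and 42.4% of all genes were called. Of the 42, 1 was higher and 17 were lower in that setting, and of the 5 genes that rose Xaf1 alone kept its call. Leaving out WT SP replicate 3 or 4 lowered the count, and the share of all genes called fell as well. A fit of 3 groups without the title ranges called 5 (Rsad2, Xaf1, Oas2, Usp18 and Ifnar1), with a background of 17.6%. The same fit without both KO DP libraries of low FPKM sum called 2, Rsad2 and Ifih1, and 7.84% of all genes. There Xaf1 (1.28), Oas2 (-1.73), Usp18 (-1.70) and Ifnar1 (-0.60) were not called (adjusted p = 0.0643 to 0.137). The single genes are described next by role.

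**Figure D1:**
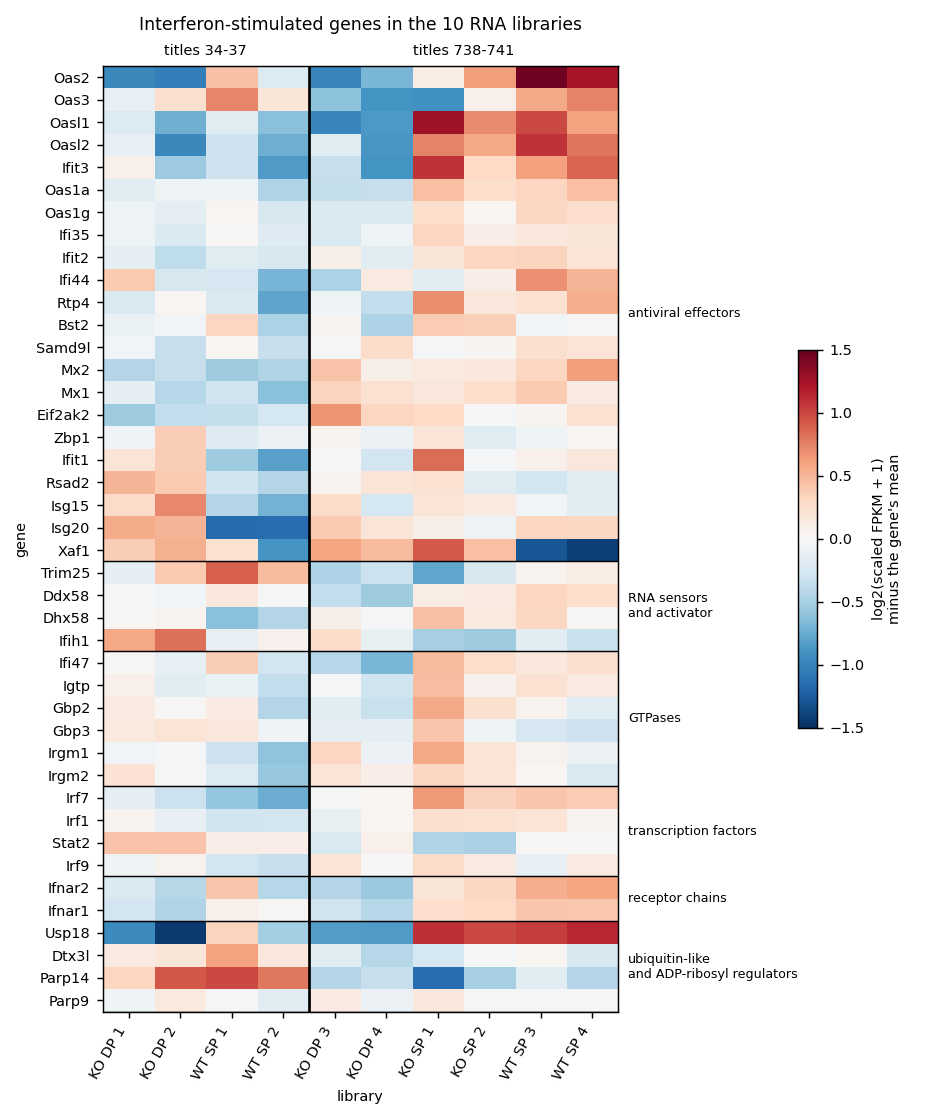
Heat map of the 42 genes (rows, grouped by role) in the 10 RNA libraries (columns, split by title range), coloured by log2(scaled FPKM + 1) minus the gene's mean over the libraries. Oas2 and Usp18 are low in all 4 KO DP libraries, and Xaf1 is low in WT SP replicates 3 and 4. The lowest value of 17 genes is in WT SP replicate 2, a count not made over all genes.

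Both chains of the type I interferon receptor fell in KO DP. Ifnar1, the signal-transducing chain, was 15.5, 13.8, 15.4 and 14.0 scaled FPKM in the KO DP libraries, 20.2, 19.4, 25.9 and 25.7 in WT SP, and 23.0 and 23.9 in KO SP. All 4 KO DP libraries lay below all 6 CD4- libraries. The log2 difference between KO DP and WT SP was -0.59 (SE 0.08, adjusted p = 0.00196, limma), and the call held when each library was left out in turn. Ifnar2, the main ligand-binding chain, was 49.0, 42.6, 41.9 and 38.5 in KO DP, 76.1, 42.1, 83.8 and 86.7 in WT SP, and 64.9 and 70.7 in KO SP. WT SP replicate 2 lay among the KO DP libraries, and the other WT SP libraries lay above them. The difference was -0.69 (SE 0.17, adjusted p = 0.0184, limma). This call of Ifnar2 ended without KO DP replicate 2, 3 or 4 or WT SP replicate 3 or 4 (adjusted p = 0.0569 to 0.0674).

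The transcription factors Irf1, Irf7, Irf9 and Stat2, which carry the interferon signal, were not called in any of the 6 comparisons as fitted here. Within titles 738-741 all 4 were called lower in KO DP with unscaled FPKM, and Irf7 was also called lower, and Stat2 higher than in KO SP, without a filter on low values. Irf1, among the most abundant of the 42, was 200, 178, 179 and 196 scaled FPKM in the KO DP libraries, 157, 159, 223 and 200 in WT SP, and 229 and 226 in KO SP. Irf7, the factor that amplifies type I interferon production, was 71.4, 62.9, 77.0 and 80.7 in KO DP, 52.4, 46.7, 105.2 and 103 in WT SP, and 124 and 101 in KO SP. For Irf7 the 2 WT SP libraries of titles 34-37 lay below, and the other 2 above, all KO DP libraries. Irf9, a DNA-binding partner of STAT2, was 47.4, 51.7, 57.5 and 49.4 in KO DP, 40.7, 38.8, 45.7 and 54.5 in WT SP, and 61.0 and 54.7 in KO SP. Stat2 was 19.7, 19.7, 12.1 and 15.3 in KO DP, 15.5, 15.5, 14.6 and 14.6 in WT SP, and 10.28 and 10.02 in KO SP. The log2 differences of these 4 factors between KO DP and WT SP ranged from 0.02 (Irf7) to 0.20 (Irf9) on the scaled values. All 4 differences had the opposite sign with unscaled FPKM, and that of Irf7 also without KO DP replicate 1 or WT SP replicate 2.

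Usp18, the ISG15 protease that restrains the receptor, fell in KO DP. It was 20.6, 14.5, 22.4 and 22.2 scaled FPKM in the KO DP libraries, against 52.0, 28.5, 85.3 and 90.6 in WT SP and 88.8 and 82.0 in KO SP. Every KO DP library lay below every other library. The difference from WT SP was -1.52 (SE 0.19, adjusted p = 0.00118, limma) and held when each library was left out. Isg15, whose product Usp18 removes from proteins, was 27.6, 37.9, 27.7 and 18.6 in KO DP, 16.3, 13.4, 21.9 and 19.9 in WT SP, and 25.9 and 25.1 in KO SP. The difference was 0.60 (SE 0.15, adjusted p = 0.0214, limma), in the direction opposite to Usp18, and KO DP replicate 4 lay within the WT SP values. Without KO DP replicate 2 or 3, or WT SP replicate 2, 3 or 4, this difference of Isg15 was not called (adjusted p = 0.0526 to 0.0746), nor was it with the replicate number as a block (adjusted p = 0.0513). The other regulators, the ADP-ribosyltransferase family genes Parp9 and Parp14 and the ubiquitin ligase Dtx3l, had differences of 0.10, -0.18 and -0.21 and were not called.

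Oas2 had the largest fall of the 42 genes. The OAS enzymes make oligoadenylates that activate an RNA-degrading nuclease, and the OAS-like genes Oasl1 and Oasl2 encode relatives. Oas2 was 0.621, 0.552, 0.597 and 0.963 scaled FPKM in the KO DP libraries, 3.31, 1.74, 7.73 and 6.45 in WT SP, and 2.43 and 3.88 in KO SP. The 4 KO DP libraries lay below all others, at a level where the added 1 FPKM understates the change. The difference was -1.65 (SE 0.19, adjusted p = 0.000956, limma) and held without each library.

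3 further OAS family genes fell in KO DP over both ranges. Oas3 was 11.4, 15.0, 7.89 and 6.29 in KO DP, 21.6, 14.4, 19.1 and 21.7 in WT SP, and 6.22 and 13.3 in KO SP (difference from WT SP -0.90, SE 0.23). Oasl1 was 2.59, 1.49, 1.10 and 1.28 in KO DP, 2.65, 1.68, 7.25 and 5.30 in WT SP, and 8.98 and 5.74 in KO SP (-0.89, SE 0.20). Oasl2 was 5.25, 2.49, 5.02 and 2.73 in KO DP, 4.49, 3.09, 13.4 and 10.9 in WT SP, and 10.4 and 9.08 in KO SP (-0.74, SE 0.23). For Oasl1 and Oasl2 the KO DP values overlapped WT SP replicates 1 and 2 and lay below replicates 3 and 4. Oas3 was as low in KO SP replicate 1 as in KO DP replicate 4, and KO SP replicate 2 lay within the KO DP values. The calls (limma, adjusted p = 0.0216, 0.0127 and 0.0437) were less firm than that of Oas2. For Oas3 the call ended without KO DP replicate 1, 3 or 4 or WT SP replicate 1, 3 or 4 (adjusted p = 0.0587 to 0.0812). For Oasl1 it ended without KO DP replicate 3 or WT SP replicate 3 (0.0517 and 0.0530), and for Oasl2 without KO DP replicate 2 or 4 or WT SP replicate 1, 3 or 4 (0.0836 to 0.138). Within ranges these 3 were called in titles 738-741 and not in titles 34-37, but the difference between the ranges was not called (adjusted p = 0.373, 0.191 and 0.25, limma). Oas1a (-0.31, SE 0.11) and Oas1g (-0.25, SE 0.11) were not called over both ranges.

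4 antiviral effectors rose. Xaf1, an interferon-induced gene of cell death, was 12.8, 14.6, 15.2 and 13.9 scaled FPKM in the KO DP libraries, 11.6, 4.82, 3.41 and 3.07 in WT SP, and 19.2 and 13.6 in KO SP. All 6 libraries lacking G9a lay above the 4 WT SP libraries, of which replicate 1 came closest. Its difference of 1.32 (SE 0.23, adjusted p = 0.00488, limma) was the largest rise and held without each library. Isg20 was 39.6, 38.4, 35.4 and 30.7 in KO DP, 11.5, 11.5, 33.6 and 33.3 in WT SP, and 28.4 and 25.2 in KO SP. The 2 WT SP libraries of titles 34-37 stood alone at a low level, and the other 8 libraries lay between 25.2 and 39.6. The difference in Isg20 was 0.83 (SE 0.08, adjusted p = 0.000489, limma) as the mean of 1.68 in titles 34-37 and -0.02 in titles 738-741. This Isg20 call ended with 3 groups (SE 0.35, adjusted p = 0.135) and with unscaled FPKM (0.41, adjusted p = 0.124). Rsad2, which encodes viperin, was 3.70, 3.31, 2.42 and 2.77 in KO DP, 1.68, 1.44, 1.71 and 1.92 in WT SP, and 2.85 and 1.90 in KO SP. KO DP and WT SP did not overlap, and the difference was 0.59 (SE 0.14, adjusted p = 0.0142, limma), with an adjusted p of 0.0502 without WT SP replicate 3. The fourth effector was Isg15, described above.

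Over both ranges, the 2 cytoplasmic sensors of double-stranded RNA went opposite ways. Ifih1, which encodes MDA5, was 3.99, 4.90, 3.02 and 2.07 scaled FPKM in the KO DP libraries, 2.07, 2.49, 1.98 and 1.64 in WT SP, and 1.36 and 1.30 in KO SP. Ddx58, which encodes RIG-I, was 26.5, 26.1, 20.6 and 18.2 in KO DP, 30.0, 26.2, 33.7 and 32.4 in WT SP, and 29.1 and 29.6 in KO SP. Ifih1 was higher in KO DP (0.53, SE 0.14, adjusted p = 0.0245, limma) and Ddx58 lower (-0.42, SE 0.08, adjusted p = 0.0082, limma). The call of Ddx58 held without each single library but ended with 3 groups (adjusted p = 0.0719), and its difference was -0.09 in titles 34-37 and -0.74 in titles 738-741. In the 3-group fit without both low-sum KO DP libraries it was -0.20 (adjusted p = 0.308). That of Ifih1, a gene of low level, ended without KO DP replicate 2 or WT SP replicate 1, 3 or 4 (adjusted p = 0.0506 to 0.0787). The Ifih1 call also ended with the olfactory receptor mean subtracted from each library (adjusted p = 0.0654, limma). The difference in Ifih1 was 0.73 in titles 34-37 and 0.32 in titles 738-741, called in neither, and Ddx58 was called in titles 738-741 alone. Dhx58, the regulator of both sensors, and Trim25, the ubiquitin ligase for RIG-I, were not called (0.22 and -0.52).

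Many effectors and all GTPases were not called over both ranges. Bst2, which tethers virions at the membrane, was 72.1, 75.4, 79.4 and 55.9 in KO DP, 97.2, 55.5, 75.4 and 78.1 in WT SP, and 101 and 99.5 in KO SP, with wide overlap (-0.10, SE 0.18). The 6 GTPases, which act on vacuoles that hold microbes, had differences from -0.43 (Ifi47) to 0.36 (Irgm2). Ifi47 was the most abundant of the 42 genes, with a mean of 200.1 scaled FPKM over the 10 libraries, and Ifi44 the least, with 0.993. Zbp1, a nucleic acid sensor of cell death that is grouped here with the effectors, Ifi35, Samd9l, Rtp4, the dynamin-like Mx1 and Mx2, the kinase gene Eif2ak2 and the IFIT genes Ifit1, Ifit2 and Ifit3 were also among the 14 effectors not called, with Oas1a, Oas1g, Bst2 and Ifi44. Members with an ISRE core stood on both sides: 3 of the 5 genes that rose had one (Isg15, Rsad2 and Ifih1). Of the 6 genes that fell and had a promoter entry, 2 had one (Oas3 and Ddx58), as did 12 of 22 that were not called.

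**Figure D2:**
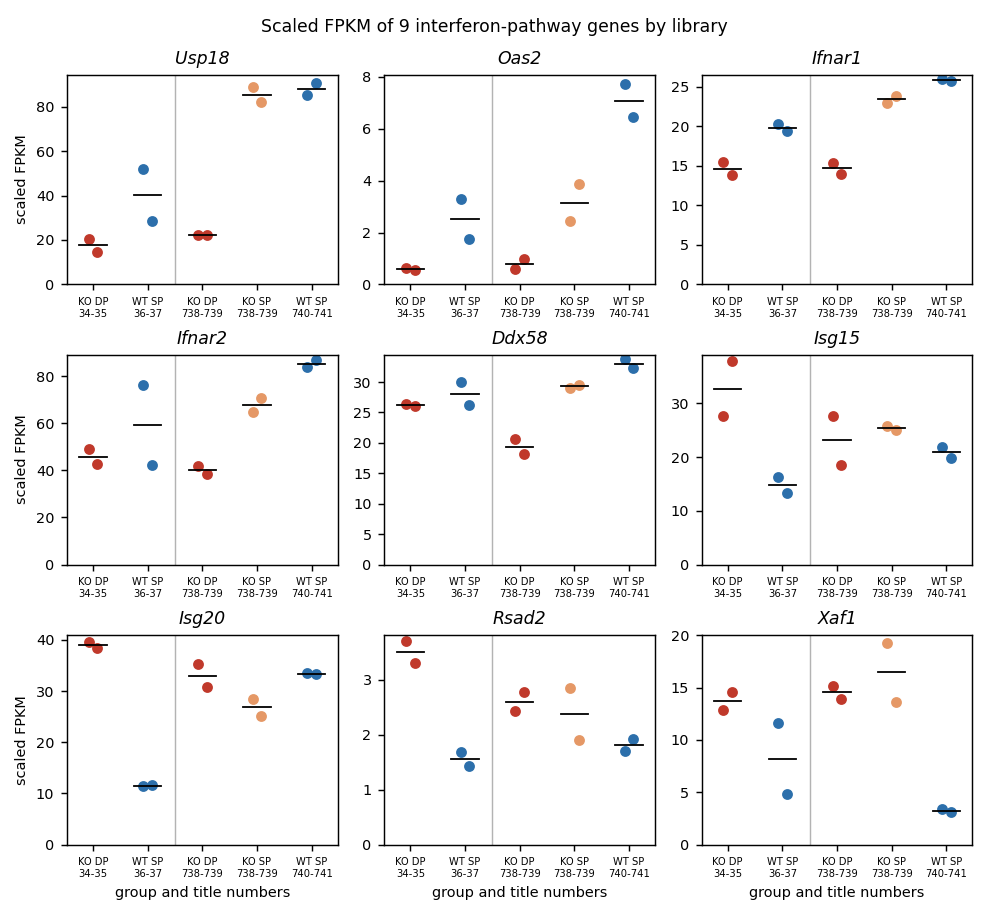
Scaled FPKM (linear axis from 0) of 9 of the genes in each library, grouped by KO DP (red), KO SP (orange) and WT SP (blue) within each title range, with bars at the means of 2. Usp18, Oas2 and Ifnar1 are lowest in KO DP in both ranges, Isg20 is low in the 2 WT SP libraries of titles 36-37, and Xaf1 is lowest in WT SP.

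Within each title range, a part of these genes was called. In titles 34-37 (2 KO DP and 2 WT SP libraries), 5 of the 42 genes were called: Isg20 (1.68, SE 0.12), Isg15 (1.08, SE 0.22) and Rsad2 (0.82, SE 0.19) were higher, and Oas2 (-1.11, SE 0.27) and Usp18 (-1.11, SE 0.26) lower in KO DP. The background was 7.72% of genes called (4.07% higher and 3.66% lower), and the 5 genes make 11.9%. The median difference over the 42 was 0.14 and over all genes -0.02. Only Isg20 kept its call in each of the 4 fits without 1 library. Isg15 and Rsad2 lost theirs in all 4, while Oas2 and Usp18 lost theirs without KO DP replicate 1 or 2 or WT SP replicate 1, and the count was 1, 1, 2 and 4. With the replicate number as a block, Isg20 and Usp18 remained called and Isg15, Oas2 and Rsad2 did not (adjusted p = 0.0828 to 0.0994).

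In titles 738-741, which hold the 2 KO DP libraries with low FPKM sums, 12 of the 42 were called, with a background of 26.7% (14.7% higher and 12.0% lower). Xaf1 was higher in KO DP (1.87, SE 0.33), and 11 were lower, 26.2% of the 42. Oas2 (-2.19, SE 0.27), Usp18 (-1.93, SE 0.26) and Oasl1 (-1.72, SE 0.28) led the falls, followed by Oasl2 (-1.47), Oas3 (-1.41), Ifit3 (-1.36), Ifnar2 (-1.07), Ifnar1 (-0.78), Ifi47 (-0.76), Ddx58 (-0.74) and Oas1a (-0.74). Ifit3, an RNA-binding IFIT protein gene, was 29.7, 18.9, 21.9 and 14.6 scaled FPKM in the KO DP libraries, 22.5, 15.2, 43.5 and 52.1 in WT SP, and 60.8 and 34.7 in KO SP. Oas1a was 12.6, 13.6, 11.1 and 11.1 in KO DP, 13.8, 10.3, 18.4 and 20.2 in WT SP, and 20.2 and 17.5 in KO SP. Ifi47 was 197, 178, 145 and 120 in KO DP, 252, 159, 217 and 231 in WT SP, and 270 and 234 in KO SP. For Ifit3 and Oas1a the WT SP libraries of titles 34-37 were near the KO DP level, whereas those of titles 738-741 lay above it. The median difference of the 42 was -0.21, against 0.00 for all genes. Leaving out KO DP replicate 3 or 4 or WT SP replicate 3 or 4 lowered the count, and the share of all genes called fell as well. Oas2, Oasl1, Usp18, Ddx58 and Ifnar1 kept their calls in all 4. With the replicate block Ifi47 was not called (adjusted p = 0.0511). Marker sums of other lists moved with the groups in these titles. The NK list was 24.0 to 24.7 in KO DP, 38.6 to 45.2 in WT SP and 45.3 to 51.0 in KO SP, and the T cell list (9 of 12 genes in the table) was 2847 to 2947, 3376 to 3549 and 3339 to 3470. Eomes made up most of the NK sum, at 19.1 and 18.5 in KO DP, 31.0 and 30.0 in WT SP and 39.1 and 32.7 in KO SP. Tyrobp was also lowest in KO DP, whereas Ncr1, at a low level, was highest there (0.408 and 0.679). The T cell genes did not move together. Cd3d, Cd3e, Cd3g, Lck and Zap70 were lower in KO DP than in WT SP, and Cd247, Cd5, Cd2 and Thy1 were higher. Lck was 807 and 791 against 1028 and 929, and Cd247 260 and 248 against 191 and 174. The dendritic list (10 of 10) was 94.9 to 95.1, 91.0 to 115 and 123 to 128, and the stromal list (8 of 8) 14.5 to 15.2, 21.7 to 22.2 and 14.1 to 19.3. Bst2, 1 of the 42 genes, made up most of the dendritic sum, and Pecam1 most of the stromal sum. Most other genes of these 2 lists were low but higher in KO DP than in WT SP. Xcr1 was 3.025 and 4.121 against 0.760 and 1.25, and Col3a1 0.432 and 0.598 against 0.0115 and 0.0116. Itgax went the other way (3.65 and 4.37 against 5.09 and 7.79). The scaled olfactory receptor mean was 0.205 and 0.499 in KO DP replicates 3 and 4, against 0.0132 and 0.0188 in WT SP replicates 3 and 4. The KO DP values of Col3a1 and Ncr1 lie near that raised level. The part of all these lists in the calls here and between KO DP and KO SP was not tested.

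The test of the difference between the ranges called 1 of the 42, Isg20 (1.70, SE 0.17, adjusted p = 0.00539, limma), with a background of 0.314% (0.108% higher and 0.206% lower). This call of Isg20 held without each of the 8 libraries. The difference was more positive in titles 34-37 than in 738-741 for 36 of the 42 genes, a count not made over all genes. The median was 0.43, against -0.03 for all genes. At an unadjusted p under 0.05 there were 15 of the 42 and 1593 of the 11162 genes. With unscaled FPKM, where the median of all genes moved to 0.87, 26 were called, with a background of 22.9%.

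The WT SP libraries differed by range for most of these genes. In WT SP, 30 of the 42 were lower in both libraries of titles 34-37 than in both of titles 738-741, with a background of 28.4%, and 7 were higher, with a background of 32.1%. In KO DP, 6 were lower and 17 higher, with backgrounds of 30.1% and 28.3%. Measured from each gene's mean, the median of the 42 was -0.40 in WT SP replicate 2, -0.11 in replicate 1, and 0.22 and 0.17 in replicates 3 and 4. In KO DP the medians were -0.05, -0.04, -0.09 and -0.19. Over all tested genes the medians lay between -0.0199 (KO SP replicate 1) and 0.0033 (KO DP replicate 4). WT SP replicate 2 held the lowest value of 17 genes and KO SP replicate 1 the highest of 19. Such counts were not made over all tested genes, so these 2 have no background. The erythroid, myeloid and NK marker sums given above also did not overlap between the ranges, and their part in the differences by range was not tested.

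**Figure D3:**
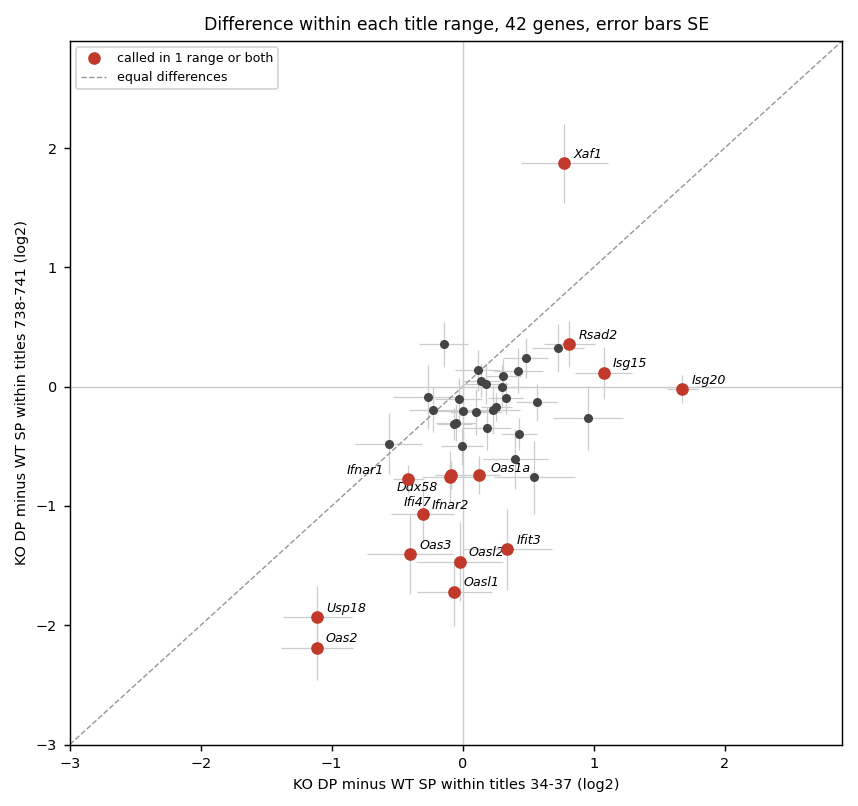
Log2 difference of KO DP and WT SP within titles 34-37 (horizontal) against titles 738-741 (vertical) for the 42 genes, with SE bars, genes called in either range in red and a dashed line of equal differences. Most points lie below the line, Isg20 is far to the right of it, and Usp18 and Oas2 are low in both.

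Between the 2 phenotypes of cells lacking G9a, compared within titles 738-741, 8 of the 42 genes were called and all 8 were lower in KO DP. The background was 12.3% called, with 6.92% higher and 5.36% lower, and the 8 genes make 19.0%. They were Oasl1 (-1.90, SE 0.28, adjusted p = 0.00793, limma), Usp18 (-1.89, SE 0.26, adjusted p = 0.00659, limma), Ifit3 (-1.31), Oas2 (-1.21), Ifi47 (-0.93), Oas1a (-0.71), Ifnar1 (-0.64) and Ddx58 (-0.57). All 8 are among the 11 genes that were lower against WT SP in these titles, and the 2 comparisons share the KO DP libraries. The median of the 42 was -0.28 and of all genes 0.03. These calls rested on few libraries. Without KO DP replicate 4 no gene of the 42 was called, and their median difference was -0.25. In each fit without 1 library, fewer of all genes were called as well. Leaving out KO DP replicate 3 gave 5 calls, 4 of the 8 and a higher Stat2, and leaving out the first or the second KO SP library gave 2 and 1. With the shared title number as a block all 8 remained. Without a filter on low values 11 were called, 10 lower and 1, Stat2, higher, with a background of 29.8% called. With unscaled FPKM, where the median of all genes moved to -0.89, 37 were lower, with a background of 62.0% called.

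KO SP and WT SP, which differ in genotype, gave no called gene among the 42 in limma, with a background of 0.323% (0.179% higher and 0.143% lower). At an unadjusted p under 0.05 there were 7 of the 42 and 1569 of the 11162 genes. Xaf1 had the largest difference, 2.02 (SE 0.33, adjusted p = 0.0592, limma), and was called with a pseudocount of 0.1. Oas3 (-1.07, SE 0.33) and Oas2 (-0.98, SE 0.27) had the lowest values of the difference, and neither was called (adjusted p = 0.235 and 0.214, limma). Oas2 was lower in both KO SP libraries than in WT SP replicates 3 and 4 but lay within the values of all 4 WT SP libraries. Usp18 (-0.04, SE 0.26), Ifnar1 (-0.14, SE 0.12) and Oasl1 (0.19, SE 0.28) had small differences here, where 2 libraries stand against 2. The median over the 42 genes was -0.01.

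**Figure D4:**
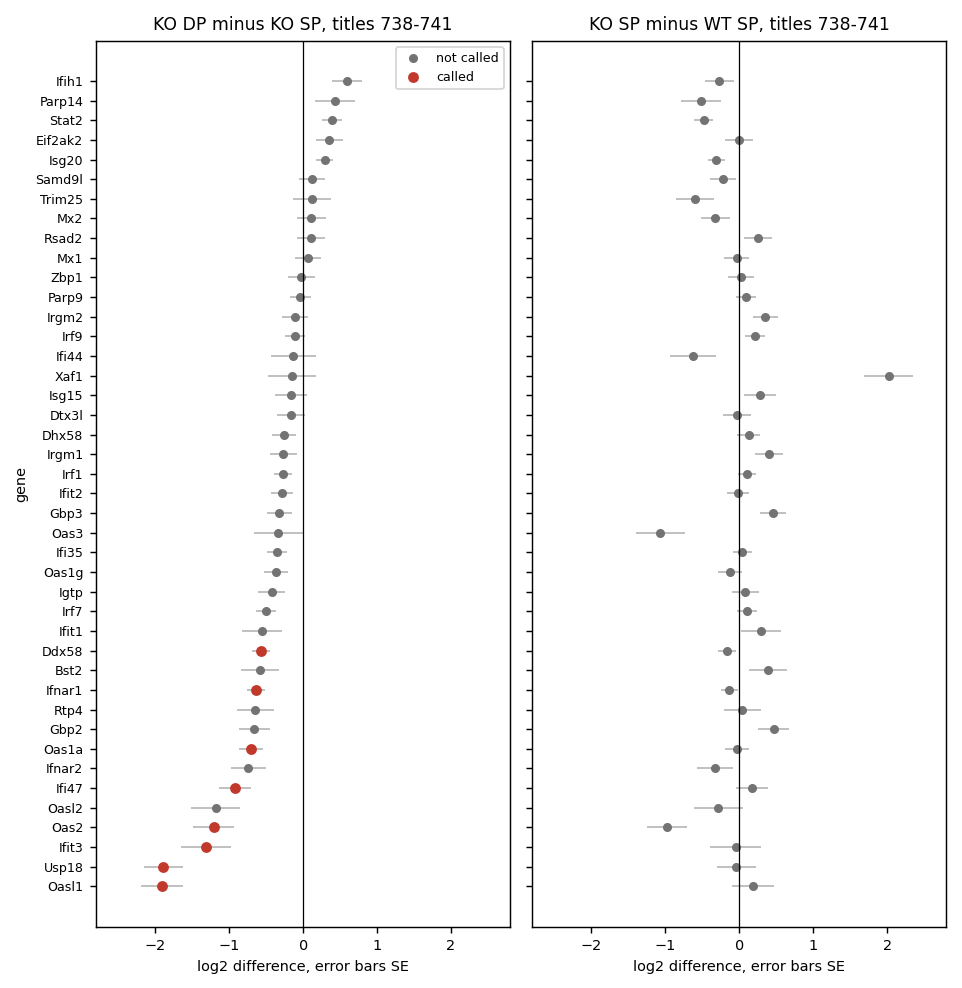
Log2 difference with SE bars for the 42 genes in titles 738-741, KO DP minus KO SP on the left and KO SP minus WT SP on the right, in the order of the left panel, with called genes in red. Oasl1 and Usp18 are lowest on the left, and Xaf1 stands apart at 2.02 on the right.

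Other genes of the interferon pathway, 125 in 6 lists, gave 98 tested genes, of which 17 were higher and 17 lower in KO DP than in WT SP over both ranges, near the shares of all genes (16.2% higher and 15.6% lower). Of 19 interferon ligand genes, Ifng alone reached the tested level. It was 54.4, 65.3, 30.2 and 33.8 scaled FPKM in the KO DP libraries, 6.65, 107, 3.15 and 11.01 in WT SP, and 14.6 and 7.50 in KO SP. WT SP replicate 2 had the highest Ifng of all libraries, and the difference (1.65, SE 0.75, adjusted p = 0.133, limma) was not called. WT SP replicate 2 was also the library with the lowest values of 17 of the 42 genes, a count not made over all genes.

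In the relay below the receptor, 5 of 12 genes fell and 1 rose, where 15.6% of all genes fell and 16.2% rose. Socs3, a feedback inhibitor (-2.37, SE 0.24), Jak1, the kinase bound to Ifnar2 (-0.98, SE 0.10), and Ptpn2, a phosphatase that restrains the pathway (-0.65, SE 0.09), had the smallest adjusted p of those that fell, and Ptpn11 rose (0.78, SE 0.16). Of 6 other IRF genes Irf5 rose (1.92, SE 0.28). Of 4 genes of ISG15 conjugation Ube2l6, the conjugating enzyme, rose (2.35, SE 0.34). Isg15 also rose over both ranges, by 1.08 in titles 34-37 and 0.12 in titles 738-741, where it was not called, and Usp18 fell. A joint change of these genes was not tested.

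Upstream nucleic acid sensing had 13 tested genes, of which Aim2 rose (1.68, SE 0.11) and Tlr7 (-1.75, SE 0.20) and Samhd1 (-0.45, SE 0.10) fell. Aim2, a DNA sensor, was 15.1, 14.8, 16.7 and 20.4 scaled FPKM in the KO DP libraries, 5.19, 5.70, 3.85 and 3.57 in WT SP, and 9.49 and 11.7 in KO SP. The 3 groups did not overlap, and Aim2 was the 1 gene of these lists called between KO SP and WT SP (1.29, SE 0.16, adjusted p = 0.0188, limma). In a list of 62 tested further interferon-stimulated genes, 13 rose, and those with the smallest adjusted p were Ifitm2 (4.07, SE 0.18), Ifi27l2a (2.12, SE 0.20) and Cxcl10 (1.97, SE 0.19). In the same list 10 fell, against the same background of 16.2% higher and 15.6% lower, and those with the smallest adjusted p were Ly6c2 (-1.98, SE 0.16), Ly6c1 (-1.83, SE 0.15) and Epsti1 (-1.16, SE 0.11).

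H3K9me3 was called at or near many of the 42 genes in both genotypes, in cultured CD8+ T cells whose RNA was not analysed here. Taking the nearest gene that the authors' mm9 annotation gives for each peak, 24 and 21 of the 42 had a peak in the WT lists and 22 and 22 in the KO lists. As shares these are 57.1%, 50.0%, 52.4% and 52.4%, against 51.1%, 33.0%, 46.5% and 51.6% of all gene symbols. The lists held 85960 and 23304 peaks in WT and 111149 and 154997 in KO, so a gene's presence moves with how many peaks were called. No test was made. Of the 42, 15 had a peak in all 4 lists (35.7%, against 27.4% of genes) and 15 had none in any (35.7%, against 38.9%).

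The genes with a peak in all 4 lists included both receptor chains, Stat2, Irf1, Usp18, Mx1 and Oas3. Stat2 had a peak in its first intron, centred 580 to 700 bases after the start, in every list, with WT scores of 11.9 and 12.6 and KO scores of 13.1 and 9.32. The score is the authors' own, with a lowest value per list of 4.19 to 6.31, and scores of different lists compare only roughly. Mx1 had a peak in its second intron (chr16:97678942-97680105 in WT replicate 1, mm9) in every list, with WT scores of 48.2 and 34.7 and KO scores of 27.7 and 19.6. The authors' annotation places the Mx1 peak on RLTR1B, an endogenous retrovirus repeat of the ERV1 family. Oas1g had a peak on RLTR1B upstream of its start (chr5:121342221-121343858 in WT replicate 1, mm9) in both WT lists (44.9 and 60) and in KO replicate 1 (21.8). Mx2 had an upstream peak on RLTR1B in both WT lists (20.6 and 33.1).

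Peaks near the genes with the clearest RNA differences varied. Ifnar1 had a peak in its first intron (chr16:91486489-91487423 in WT replicate 1, mm9), with scores of 33.0 and 31.6 in WT and 18 in KO replicate 1; the KO replicate 2 list had no peak there. Xaf1 had a peak about 11.7 kb upstream of its start in both KO lists, with low scores of 7.77 and 6.99, and none in WT. Isg20 likewise had peaks in both KO lists and in neither WT list, the closest being 37405 bases from the start. Xaf1 and Isg20 were the only genes described here with this pattern, 4.76%, against 3.37% of all gene symbols. Igtp, a GTPase gene that was not called, had a peak 1812 and 1793 bases upstream in both WT lists (9.74 and 18.9) and none in KO. Igtp was the only gene described here with peaks in both WT lists alone, 2.38%, against 1.08% of all gene symbols. These shares were not tested, and the KO lists held more peaks than the WT lists. Isg15, Rsad2, Ifih1 and Oasl1 had none in any list.

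**Figure D5:**
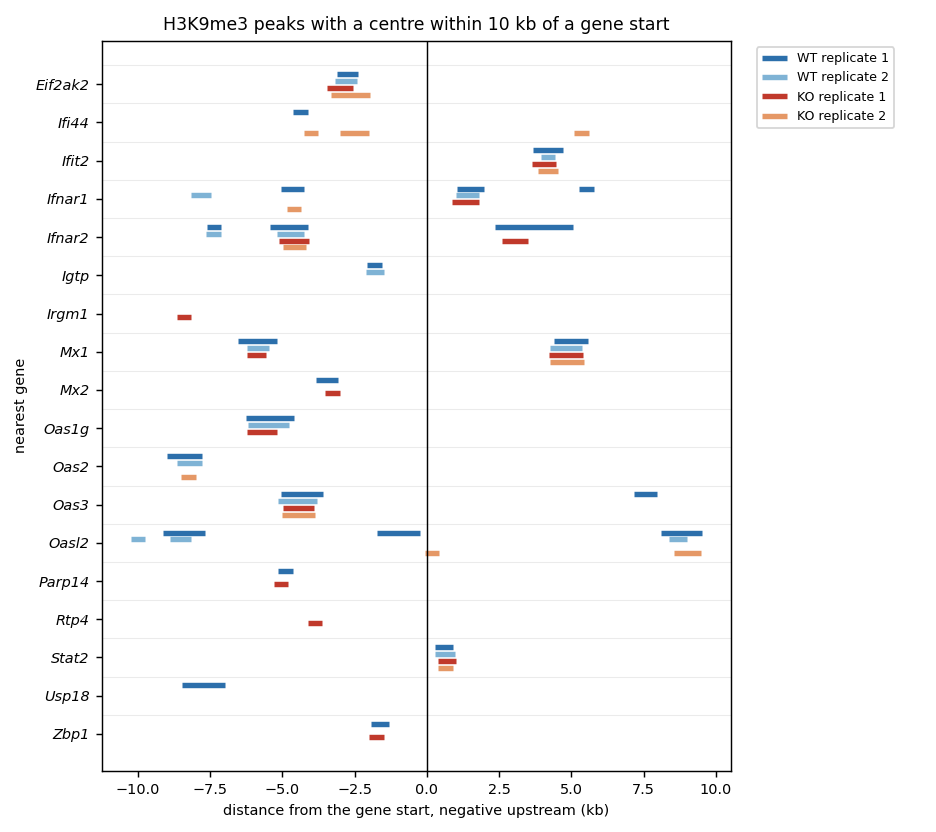
H3K9me3 peaks centred within 10 kb of the start of 1 of the 42 genes, drawn as bars over their length against the distance from the start (kb, negative upstream), with 1 colour per list. Stat2, Mx1, Oas3, Ifit2, Ifnar2 and Eif2ak2 have overlapping peaks in all 4 lists, and the Ifnar1 peak just after the start is in 3.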

How the data were processed

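RNA was measured in 10 libraries and H3K9me3 in 4. Per the labels' protocols, RNA was amplified with SMART-Seq v4 and tagged with Nextera, which does not mark the strand, so reads of overlapping genes on opposite strands could not be separated. The authors deposited FPKM; per the submitters' processing notes the tools were TopHat and Cufflinks and the build mm9. Neither tool versions nor the annotation is given in the sources used here. FPKM holds no read counts, so depth is unknown and no counting intervals were computed. For the peaks, per the submitters' processing notes, Bowtie and HOMER served, again with mm9; there is 1 list per library, and the score and the distance to the nearest start are as deposited; how the score was scaled is not stated. The input libraries were not used here.

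Groups follow the labelled genotype and CD4 phenotype. As the labels do not name separate animals, p-values measure the spread between these libraries, which may be technical. Lines that repeat a symbol (716 lines of 250 symbols, of 23700 lines) were summed. A library's size factor was the median, over 10571 genes, of its FPKM divided by the gene's geometric mean. Tests used limma 3.58.1 (R 4.3.3) with a mean-variance trend on log2(scaled FPKM + 1), a minimum mean of 0.5 FPKM per gene, 5 groups of phenotype, genotype and title range (5 residual degrees of freedom). P-values were adjusted by Benjamini-Hochberg over 11162 genes. The procedure was also run on simulated data with independent normal noise and 1 mean per gene, apart from changes added to KO DP. These data held no difference between title ranges, no low-sum libraries and no shared origin of libraries. That run therefore cannot show how the tests behave under those conditions. A fold change on this scale is understated for low genes. Leaving out 1 library leaves an arm of 1, which is assumed to vary like the other groups. Motifs, peaks and figures used Python 3.11.15, numpy 2.4.6, pandas 2.3.3 and matplotlib 3.10.9, and promoters came from RefSeq GRCm38.p6.

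KO DP and WT SP share replicate numbers 1 to 4 in their descriptions. For equal numbers, the correlation of the libraries' departures from their group means was 0.151, 0.305, 0.100 and 0.136, each above 0.1, so by that rule the numbers count as pairs; the reported tests have no block, and the block is given beside a result where it changes a call. However, the best match of KO DP replicate 3 was WT SP replicate 4 (0.198), and that of replicate 4 was replicate 3 (0.269), and the numbers coincide with title ranges. With the range removed as well, equal numbers correlated at 0.114 in titles 34-37 and at -0.114 in titles 738-741, below 0.1 in the second range. KO DP and KO SP share titles 738 and 739, where that correlation was 0.121.

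The 42 genes and all lists were chosen with earlier results of these data known. Named with values in every library were the genes called in any comparison, and always Stat2, Irf1, Irf7, Irf9, Usp18, Ifnar1, Ifnar2, Isg15, Bst2, Ifng and Ehmt2; 1 further gene that the rule names is not reported here. Up to 3 called genes per pathway list and direction were named by smallest adjusted p. Other values, such as the peaks near Igtp, Mx1, Mx2 and Oas1g, were named after they were seen. Summed scaled FPKM of the B cell list, not given in the results, was 15.8 to 104. Alternatives were no size factors, a pseudocount of 0.1, no filter, a mean of at least 2 FPKM, 3 groups, replicate blocks and leaving out libraries.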

Additional observations from a re-analysis of the deposited data

Results flagged for a closer look

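In 84 groups of 4 libraries (each gene in KO DP and in WT SP), 3 had a library far from the others by Dixon's criterion, where chance gives about 1 in 20. Oas2 was 0.963 scaled FPKM in KO DP replicate 4, against 0.552 to 0.621 in the other KO DP libraries; it stayed below every WT SP and KO SP library. Irgm1, an immunity-related GTPase gene, was 70.2 in KO DP replicate 3, against 52.5 to 55.4. Parp9 was 23.0 in WT SP replicate 2, against 25.5 to 25.6 in the other WT SP libraries. KO DP replicates 3 and 4 are the libraries with low FPKM sums and a raised olfactory receptor mean. WT SP replicate 2 is the one with the lowest values of 17 of the 42 genes, a count not made over all genes. The part of these library traits in the flagged values was not tested.

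The difference in Isg20 between KO DP and WT SP was 1.70 larger (log2) in titles 34-37 than in titles 738-741, by the test of that difference. The WT SP libraries were at 11.5 and 11.5 in the first range and 33.6 and 33.3 in the second, while KO DP spanned 30.7 to 39.6.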

How the results depend on the processing

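Of the 42 genes, 13 were called between KO DP and WT SP over both ranges. The count was 5 with 3 groups, 12 with the replicate block and 2 (Rsad2 and Ifih1) with 3 groups and without both KO DP libraries of titles 738-741; without 1 library it ranged from 6 to 15. In titles 34-37 the 5 calls became 2 without size factors, 1 without a filter, 3 at a mean of at least 2 FPKM and 2 with the replicate block, and 1 to 4 without 1 library. In titles 738-741 the 12 became 36 without size factors, 11 with the block and 6 without any 1 library. Between KO DP and KO SP the 8 became 37 without size factors and 2 with 3 groups, and 0 to 5 without 1 library. Between KO SP and WT SP the count was 0 and 1, Xaf1, with a pseudocount of 0.1. In the main fit, 7 of the 42 and 1569 of the 11162 genes had an unadjusted p under 0.05 in limma. For the difference between ranges the 1 call became 26 without size factors, 3 without a filter and 1 to 2 without 1 library. The replicate block ended no other call than those of Isg15, Oas2, Rsad2 and Ifi47 given with the results. Genes that were not called changed sign over both ranges: without size factors Stat2 was -0.29, Irf1 -0.40, Irf7 -0.42 and Irf9 -0.23, and without both KO DP libraries Irf7 was -0.099. Without 1 library Irf7 ranged from -0.029 (KO DP replicate 1) to 0.062, with -0.024 without WT SP replicate 2, and Bst2 from -0.30 to 0.10 (WT SP replicate 1), with 0.027 without KO DP replicate 4. The causes were not tested. Of 308 values of named genes under settings other than leaving out 1 library, 258 kept sign and call, 45 lost the call and 5 changed sign; of 252 without 1 library, 157, 91 and 4 did. Peaks at the genes numbered 194, with 68 within 10 kb of a start and 122 with a score at or above their list's median; the ISRE core in its narrower form was in 12 promoters rather than 17. Subtracting the olfactory receptor mean was chosen after seeing the data. Depth is unknown, and 2 libraries per range limit the precision.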
